A study of Homo sapiens with 2 samples.

Results

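Cells of the breast epithelial line MCF10A that carried an inhibitor of PI3K were compared 30 h and 20 h after stimulation with EGF. MCF10A arose by spontaneous immortalisation, forms no tumours and needs EGF to proliferate. In both groups EGF had acted for 15 h before the inhibitor was added, so the cells at 30 h had been exposed to it for longer. Cells were chosen by joining each barcode to its sample tag and each tag to its condition, which gave 1399 of the 4837 deposited cells. At 30 h there were 376 cells in library 1 and 504 in library 2, and at 20 h there were 332 in library 1 and 187 in library 2. Each library is 1 biological replicate in which every condition was tagged and then pooled, so n = 2 for each condition. The same times were compared in cells given a MEK inhibitor, also at 15 h of EGF, and in cells given EGF alone. Cells at 15 h of EGF and unstimulated cells (0 h) entered the estimate of the spread. Neither inhibitor is named and no dose is stated in the labels, and 1 cell line was used throughout. Tests between conditions rest on these 2 libraries. Their p-values measure the spread left once a constant difference between the libraries is removed, estimated over all 8 conditions.

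Summed counts of the inhibited cells were 4628094 and 6319872 UMIs (unique molecular identifiers, 1 per captured transcript) in libraries 1 and 2 at 30 h, against 3940026 and 1938814 UMIs at 20 h. Median depth per cell was 11952 and 11650 UMIs at 30 h, against 11742 and 9945 UMIs at 20 h, and the median share of mitochondrial-encoded UMIs was 4.64% and 4.68% at 30 h, against 5.11% and 5.67% at 20 h. The part of these differences in the results was not tested. No barcode was shared by the libraries. All 10 markers of mammary epithelial lines were detected in every sum, with 33356 and 35392 CPM (counts scaled to a common total, here the plain sum) in the 10 together at 30 h, against 25339 and 27754 CPM at 20 h. Of 23 markers of other cell types 10 were listed in both tables. Together they held 32.2 and 22.9 CPM at 30 h, against 41.4 and 34.6 CPM at 20 h, and the pericyte marker PDGFRB was at 0.

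PI3K is a lipid kinase downstream of EGFR and other receptors, and its product recruits the kinase AKT to the membrane. AKT keeps FOXO transcription factors out of the nucleus and, through mTORC1, promotes protein and lipid synthesis. Together with the MEK and ERK kinases the pathway raises D-type cyclins, which release E2F factors from the retinoblastoma protein. E2F factors then drive the genes of DNA replication, and later in the cycle the MuvB complex with B-MYB and FOXM1 drives the genes of mitosis.

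Promoters of 3 cell cycle genes are shown because the largest falls and the largest differences from EGF alone lay among genes of these kinds. Each runs from 250 bases before to 50 after the gene's start in RefSeq on GRCh38.p14, 5′ to 3′ on the gene's strand, with motif matches in capitals. The capitals mark E2F matches and CCAAT boxes in E2F1 and MCM6, and CHR matches (TTTGAA, the element bound by MuvB) and CCAAT boxes in CCNB2. Positions are chr20:33686336-33686635, minus strand for E2F1, which encodes the first-found activator of the E2F family. They are chr2:135876394-135876693, minus strand for MCM6, a subunit of the replicative helicase, and chr15:59104896-59105195, plus strand for CCNB2, the mitotic cyclin B2.
E2F1: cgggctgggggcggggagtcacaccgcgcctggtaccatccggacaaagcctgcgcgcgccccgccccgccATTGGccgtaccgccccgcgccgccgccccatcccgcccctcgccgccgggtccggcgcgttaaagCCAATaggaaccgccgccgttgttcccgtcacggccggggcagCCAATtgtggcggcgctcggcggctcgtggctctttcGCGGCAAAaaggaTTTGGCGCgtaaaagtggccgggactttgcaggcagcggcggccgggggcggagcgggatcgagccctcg
MCM6: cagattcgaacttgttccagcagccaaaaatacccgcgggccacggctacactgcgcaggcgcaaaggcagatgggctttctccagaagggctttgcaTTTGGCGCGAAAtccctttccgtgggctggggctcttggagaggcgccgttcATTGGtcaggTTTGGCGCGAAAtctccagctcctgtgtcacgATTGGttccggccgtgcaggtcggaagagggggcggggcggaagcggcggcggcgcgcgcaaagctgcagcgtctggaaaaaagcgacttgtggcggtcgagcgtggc
CCNB2: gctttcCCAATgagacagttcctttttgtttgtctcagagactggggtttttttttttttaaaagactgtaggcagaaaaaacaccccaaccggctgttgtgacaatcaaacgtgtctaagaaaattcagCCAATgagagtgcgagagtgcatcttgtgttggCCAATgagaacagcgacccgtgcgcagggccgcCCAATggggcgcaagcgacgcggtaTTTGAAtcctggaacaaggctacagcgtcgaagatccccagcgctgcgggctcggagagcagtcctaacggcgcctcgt

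Motifs were searched on both strands. The E2F motif was any of TTTCCCGC, TTTGGCGC, TTTGCCGC, TTTCGCGC and TTCCCGCC, the CCAAT box was CCAAT, and 1 stretch can match on both strands, as it does at both E2F sites of MCM6. Of 57 genes of DNA replication and S phase 46 had a promoter in the RefSeq table, and 30 of these (65.2%) held the E2F motif, against 5.57% of all 27305 promoters. The CHR motif was in 2 of the 46 (4.35%). Of 64 genes of G2 and mitosis 54 were matched, and 36 of them (66.7%) held the CHR motif, against 15.4% of all promoters, while 6 (11.1%) held the E2F motif. CCAAT boxes were in 27 of the 46 (58.7%) and 41 of the 54 (75.9%), against 35.7% of all promoters. A match describes the letters and is not a bound site.

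At 30 h against 20 h with the PI3K inhibitor 1236 of 11147 tested genes had changed (11.1%), with 612 higher (5.49%) and 624 lower (5.6%) at 30 h by edgeR's quasi-likelihood test at a Benjamini-Hochberg adjusted p under 0.05. Values below are CPM of the summed UMIs on composition-scaled totals, and log2 changes are 30 h over 20 h. Of the called genes 1232 moved the same way in both libraries. The call itself favours such genes, so this count is no separate replication. Most changes were modest, with a median of 0.59 among the higher and -0.69 among the lower genes, and 84 were above 1 while 151 were below -1. Fitted without the library as a block, 62 genes were higher and 102 lower. When CPM were taken on plain totals instead, the median of all genes moved to -0.07 and the split became 428 higher and 902 lower.

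**Figure D1:**
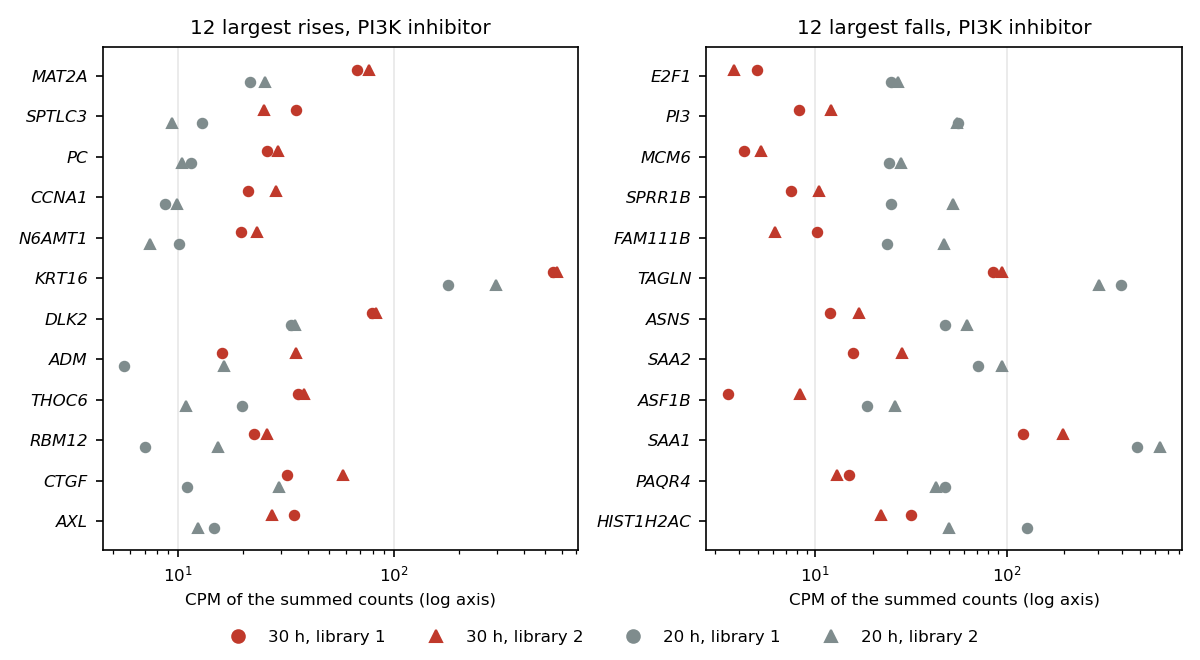
Levels of the 12 largest rises and 12 largest falls among called genes that averaged 20 CPM or more at either time, with CPM on a log axis. Red marks are 30 h and grey marks 20 h with the PI3K inhibitor, circles library 1 and triangles library 2. E2F1 lies at 4.97 and 3.74 CPM at 30 h, against 24.7 and 27.2 CPM at 20 h.

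Of all the lists, that of DNA replication held the most falls. Of 56 tested genes of the S phase list 32 fell and 0 rose (57.1%, against 11.1% of all tested genes). The median log2 change was -0.91, against 0.01 over all genes. Between the same times 28 fell and 1 rose with EGF alone (median -0.47), and 50 fell and 0 rose with the MEK inhibitor (median -1.36). The fall was thus not particular to the PI3K inhibitor. Its difference from the change with EGF alone, tested as an interaction, was called lower for 8 and higher for 0 (median -0.40). E2F1 on chromosome 20 (33675683 to 33686404) had 4.97 and 3.74 CPM in libraries 1 and 2 at 30 h, against 24.7 and 27.2 CPM at 20 h. Both libraries at 30 h lay far below both at 20 h, and the log2 change of -2.58 (SE 0.24, adjusted p = 3.75e-11) was the largest fall named by the rule. MCM6 on chromosome 2 (135839626 to 135876426), whose promoter holds a pair of two-strand E2F stretches, had 4.23 and 5.20 CPM at 30 h, against 24.2 and 28.2 CPM at 20 h (log2 -2.36, SE 0.26, adjusted p = 1.21e-09). DTL, the substrate receptor of the ubiquitin ligase that destroys replication licensing factor CDT1, had 6.71 and 4.55 CPM at 30 h, against 15.2 and 24.3 CPM at 20 h (log2 -1.78, SE 0.27, adjusted p = 2.93e-06). CCNE2, which encodes the CDK2 partner cyclin E2, had 2.24 and 3.09 CPM at 30 h, against 8.15 and 13.9 CPM at 20 h (log2 -1.97, SE 0.38, adjusted p = 0.000197). In neither gene did the libraries of the 2 times overlap.

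Licensing and helicase genes fell, with MCM2 at -1.24, MCM3 at -1.31, MCM4 at -1.09, MCM5 at -1.60, MCM7 at -0.98, ORC6 at -1.56, CDC45 at -1.59 and GINS2 at -1.63. The sliding clamp PCNA, the most abundant of those that fell, had 87.3 and 109 CPM at 30 h, against 218 and 257 CPM at 20 h (log2 -1.26). The clamp loader genes RFC2 (-1.01), RFC3 (-0.68) and RFC4 (-0.65), the flap endonuclease FEN1 (-0.80) and the nucleotide synthesis genes TYMS (-0.65), TK1 (-0.70) and RRM1 (-0.50) fell by less. These members were picked by role after their values were seen, except MCM2. The 24 members without a call also all had negative log2 changes, between -2.26 for E2F2 and -0.04 for GINS3, and these included the subunits of the replicative polymerases and the ribonucleotide reductase gene RRM2 (-0.34). FAM111B, a protease gene that peaks in S phase (10.2 and 6.18 CPM at 30 h, against 23.6 and 47.0 at 20 h, log2 -2.05), and the histone chaperone ASF1B (3.48 and 8.29 CPM at 30 h, against 18.6 and 26.2 CPM at 20 h, log2 -1.84) were among the 12 largest falls outside the list. Of 12 tested clustered histone genes 4 fell (33.3%, against 11.1% of all tested genes), and histone genes share much sequence. Among them was HIST1H2AC with 31.6 and 22.0 CPM at 30 h, against 128 and 50.0 CPM at 20 h (log2 -1.70). Fitted without the library block 19 list members fell, with adjusted p = 0.052 for CCNE2 and 0.074 for MCM2. In cells thinned to 1 depth MCM2 had a log2 change of -0.87 (adjusted p = 0.21). In cells called G1 adjusted p was 0.055 for MCM2, 0.18 for DTL and 0.10 for FAM111B. With 1 library left out and the spread taken from the other conditions the call of MCM2 was lost without library 1 (adjusted p = 0.15) and that of CCNE2 without library 2 (adjusted p = 0.055).

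In single cells the same fall appeared as fewer cells with many replication transcripts. Each cell was thinned to 6500 UMIs, which kept 348 and 451 cells in libraries 1 and 2 at 30 h, against 311 and 149 at 20 h, and left out 28 and 53 shallower cells at 30 h, against 21 and 38 at 20 h. The median number of S list UMIs per cell was 3 and 4 at 30 h, against 5 and 10 at 20 h. The 90th percentile was 10 and 16 UMIs at 30 h, against 20 and 28 UMIs at 20 h. Unstimulated cells, which should hold few cells in S phase, had medians of 2 and 6 UMIs over 137 and 17 cells. For the G2 and mitosis list the median was 8 and 13 UMIs at 30 h, against 11 and 19 at 20 h, while the 90th percentile was 35.6 and 50.0 UMIs at 30 h, against 26.0 and 49.2 at 20 h. The median was thus lower at 30 h in both libraries, while the 90th percentile was not.

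**Figure D2:**
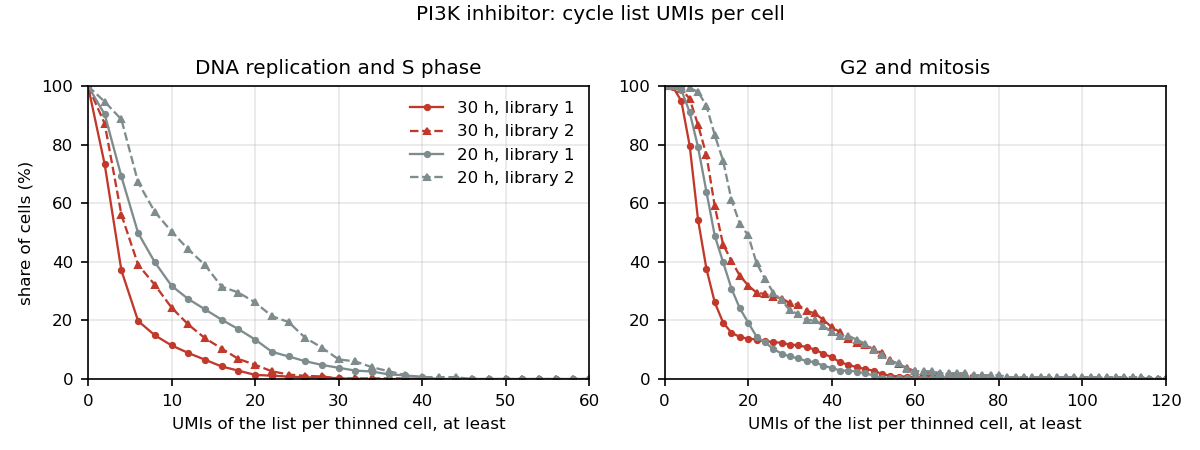
Share of cells (%) with at least the number of UMIs on the horizontal axis from the S phase list (left) and the G2 and mitosis list (right), per cell thinned to 6500 UMIs, in steps of 2 UMIs. Red lines are 30 h and grey lines 20 h with the PI3K inhibitor, solid for library 1 and dashed for library 2. On the left both red lines run below both grey lines at every step from 2 to 40 UMIs. On the right each red line lies below the grey line of its library at 20 UMIs and above it at 32 UMIs.

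At 30 h fewer cells were called S, and more were called G1 and G2/M, by scores of these lists. A cell was called S where only the S score was positive or was the higher of 2 positive scores, G2/M likewise, and G1 where neither was positive. The share called S was 2.59% and 3.99% in libraries 1 and 2 at 30 h, against 19.6% and 26.8% at 20 h, or 3.29% ± 0.993 at 30 h, against 23.2% ± 5.11 at 20 h (SD, n = 2). The 4 exact binomial intervals, which cover counting error only, were 1.19% to 4.85% and 2.38% to 6.23% at 30 h, against 15.3% to 24.5% and 19.9% to 34.7% at 20 h. The share called G1 was 85.9% and 72.1% at 30 h, against 77.5% and 60.4% at 20 h, which is 8.43 and 11.7 percentage points more within a library. The share called G2/M was 11.5% and 23.9% at 30 h, against 2.89% and 12.8% at 20 h, so the libraries differed as much as the times did. With EGF alone 17.0% and 7.38% were called S at 30 h, against 47.9% and 48.0% at 20 h, and 57.4% and 84.3% were called G2/M at 30 h, against 11.9% and 24.5% at 20 h. With the MEK inhibitor 1.26% and 0.35% were called S at 30 h, against 37.5% and 47.3% at 20 h. With 2 libraries on each side the smallest p of an exact permutation test (two-sided) is 0.333, and no share was tested. With limits on list UMIs from unstimulated cells in place of scores the G1 share was 83.0% and 60.5% at 30 h, against 57.6% and 35.6% at 20 h, a mean difference of 25.2 points. Of the inhibited cells 18.7% lay within 0.05 score units of a limit, and the part of free RNA in these calls was not tested.

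**Figure D3:**
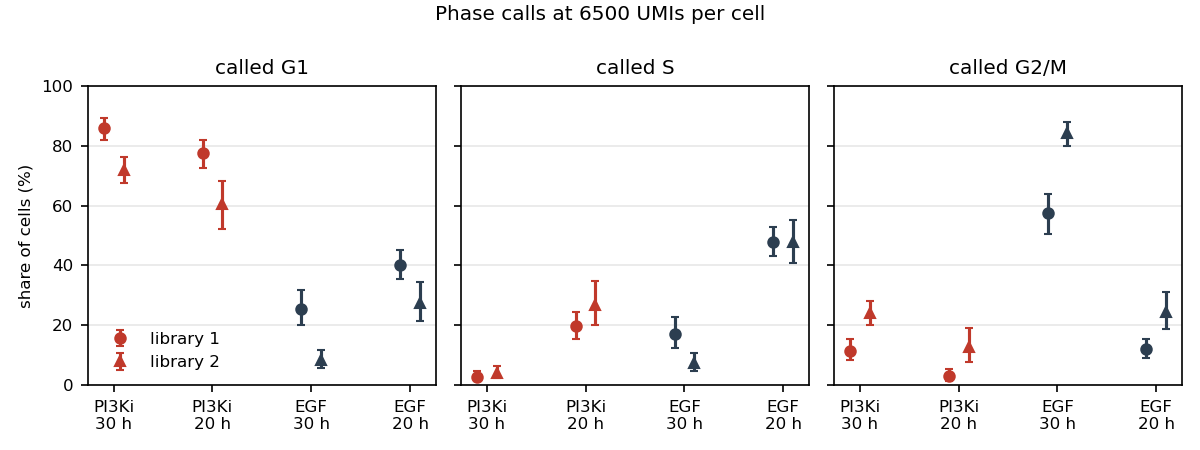
Share of thinned cells (%) called G1, S and G2/M, for the PI3K inhibitor (red) and EGF alone (dark) at 30 h and 20 h. Circles are library 1, triangles library 2 and bars exact 95% binomial intervals. S calls lie at 2.59% and 3.99% with the inhibitor at 30 h, and G2/M calls reach 57.4% and 84.3% with EGF alone but 11.5% and 23.9% with the inhibitor.

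Genes of mitosis did not rise with the PI3K inhibitor as a group, whereas they did with EGF alone. Of 64 genes of G2 and mitosis 2 rose and 3 fell with the inhibitor (7.81%, against 11.1% of all tested genes). The median log2 change was 0.03. Over the same interval 62 rose and 0 fell with EGF alone, with a median of 1.33. There 868 of 11147 genes were called (7.79%), 503 higher (4.51%) and 365 lower (3.27%). The difference between these changes was tested as an interaction, in which 630 of 11147 genes were called (5.65%), 268 with a higher (2.4%) and 362 with a lower change (3.25%) under the inhibitor. Within the list 45 of 64 genes had a lower and 0 a higher change, with a median difference of -1.23, against 0.01 over all genes. CCNB1, which encodes cyclin B1, the partner of CDK1 at mitotic entry, had 30.1 and 62.8 CPM with the inhibitor at 30 h, against 25.6 and 59.9 CPM at 20 h (log2 0.16, SE 0.16, adjusted p = 0.595). With EGF alone it had 216 and 375 CPM at 30 h, against 52.2 and 77.4 CPM at 20 h, and the difference of the changes was -1.99 (SE 0.21, adjusted p = 1.9e-09). The centrosomal kinase NEK2 (-2.10), the spindle gene DLGAP5 (-1.95) and CDCA3, a trigger of mitotic entry (-1.94), were among the 6 lowest differences. So were NMU, which encodes the neuropeptide neuromedin U (-1.98), and the nucleosome-binding gene HMGN5 (-2.24). HMGN5 had 2.73 and 4.72 CPM with the inhibitor at 30 h, against 5.90 and 6.93 at 20 h, and 24.5 and 22.0 CPM with EGF alone at 30 h, against 8.19 and 7.03 at 20 h. Without the library block 5 genes had a higher and 1 a lower change among all tested, and CCNB1 had an adjusted p of 0.36. Calls were lost without library 1 for HMGN5 (adjusted p = 0.057) and without library 2 for NMU (0.086) and CDCA3 (0.43), and DESeq2 gave 0.23 for CDCA3.

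The few mitotic genes that did change with the inhibitor went both ways. CDC25B, the phosphatase that activates CDK1 at the centrosome, had 50.7 and 57.1 CPM at 30 h, against 31.2 and 30.7 CPM at 20 h (log2 0.75, SE 0.15, adjusted p = 0.000264). CDCA2, a phosphatase regulator of chromosomes, had 9.20 and 10.6 CPM at 30 h, against 17.7 and 17.8 CPM (log2 -0.93). MYBL2, which encodes the MuvB partner B-MYB, had 7.21 and 12.4 CPM at 30 h, against 11 and 24.3 CPM at 20 h (log2 -0.76, adjusted p = 0.0398), and the 20 h value of library 1 lay below the 30 h value of library 2. The histone variant gene H2AFZ fell by 0.67 on the log2 scale. MKI67, the proliferation marker, had 25.1 and 35.9 CPM at 30 h, against 15.5 and 41.1 CPM at 20 h (log2 0.20, adjusted p = 0.523). It was higher at 30 h in library 1 and lower in library 2. The 2 rises and 3 falls were all lost without the library block. In cells called G1, a choice of cells that used this list, CDC25B had a log2 change of 0.40 (adjusted p = 0.22). CDCA2 had an adjusted p of 0.11 there. MYBL2 also had an adjusted p of 0.091 by DESeq2, 0.27 in cells thinned to 1 depth and 0.064 without the 10% of cells with most UMIs. Calls of CDCA2 (adjusted p = 0.22 and 0.065) and MYBL2 (0.083 and 0.49) were also lost without library 1 or 2.

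Among 20 tested G1 cyclins, CDKs and CDK inhibitors 1 rose and 3 fell (20.0%, against 11.1% of all tested genes). The one that rose was CCND1, which encodes cyclin D1, the CDK4/6 partner that growth factors induce, on chromosome 11 (69641087 to 69654474). It had 105 and 117 CPM with the PI3K inhibitor at 30 h, against 54.0 and 57.4 CPM at 20 h (log2 0.98, SE 0.13, adjusted p = 1.19e-07), and the times did not overlap. With EGF alone it had 90.5 and 117 CPM at 30 h, against 129 and 173 CPM at 20 h, and with the MEK inhibitor 31.1 and 25.1 CPM at 30 h, against 45.8 and 59.8 CPM at 20 h. Its change differed from that with EGF alone by 1.5 (SE 0.17, adjusted p = 6.36e-09; 0.062 without the block) and from that with the MEK inhibitor by 1.95 (SE 0.20, adjusted p = 1.72e-10). RBL1, which encodes the retinoblastoma relative p107, fell by 0.93, and CDKN2D, which encodes the CDK4/6 inhibitor p19, fell by 0.56, on the log2 scale. The third, CDK2 (-1.45), lay under the level set for naming and is given after its value was seen. The CDK inhibitor genes of the CIP/KIP family did not pass the test. CDKN1A (p21) had 49.5 and 46.2 CPM at 30 h, against 39.4 and 55.4 CPM at 20 h, CDKN1B (p27) 9.95 and 8.78 CPM at 30 h, against 10.7 and 5.94 CPM at 20 h, and CDKN1C (p57) 23.6 and 20.7 CPM at 30 h, against 30.4 and 29.2 CPM at 20 h. Their log2 changes were 0.06, 0.07 and -0.42 (adjusted p = 0.848, 0.919 and 0.154). Calls of RBL1 and CDKN2D were lost without the block (adjusted p = 0.13 and 0.24) and in cells thinned to 1 depth (0.13 and 0.25). They were also lost without the 10% of cells with most UMIs (0.056 and 0.05005). Without library 1 neither was called, at log2 changes of -0.57 and -0.51, nor was CDKN2D without library 2, at -0.60.

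Of 28 tested genes that FOXO factors induce or that feed back on PI3K 0 rose and 2 fell (7.14%, against 11.1% of all tested genes), with a median of -0.07. TXNIP, an inhibitor of thioredoxin and glucose uptake that FOXO factors induce, had 399 and 238 CPM at 30 h, against 509 and 200.0 CPM at 20 h (log2 -0.11, SE 0.10, adjusted p = 0.563), and the libraries differed more than the times. CCNG2, which encodes cyclin G2, had 34.1 and 30.4 CPM at 30 h, against 32.9 and 28.7 CPM at 20 h (log2 0.06, adjusted p = 0.849). IRS2, the insulin receptor substrate that is a FOXO target in liver, had 43.8 and 45.0 CPM at 30 h, against 47.8 and 49.0 CPM at 20 h (log2 -0.16, adjusted p = 0.523). PIK3IP1, a membrane protein that inhibits PI3K, had 0 and 1 UMIs at 30 h, against 2 and 3 at 20 h, and was too low to test. The 2 that fell were the glucocorticoid-induced leucine zipper gene TSC22D3, with 67.4 and 64.2 CPM at 30 h, against 131 and 89.1 CPM at 20 h (log2 -0.77, adjusted p = 4.41e-06), and the mitochondrial superoxide dismutase gene SOD2 (log2 -0.67, adjusted p = 0.001). With the MEK inhibitor 13 members of the list rose and 1 fell between the same times, where 2369 of 11147 genes were called (21.3%), 1334 higher (12%) and 1035 lower (9.29%). The interaction of the 2 inhibitors called 1045 of 11147 genes (9.37%), 420 with a higher (3.77%) and 625 with a lower change (5.61%) under the PI3K inhibitor, and in this list 1 with a higher and 10 with a lower change. Without the library block SOD2 was not called (adjusted p = 0.2), nor was it by DESeq2 (0.08). Without library 1 TSC22D3 was not called, at a log2 change of -0.47, nor was SOD2 without library 2, at -0.43. The FOXO motif TGTTTAC was in 6 of 27 matched promoters of the list (22.2%), against 3.41% of all promoters.

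Some genes that ERK signalling induces were higher at 30 h, but the list as a whole was not. Of 20 ERK output genes 4 rose and 0 fell (20.0%, against 11.1% of all tested genes), and besides CCND1 these were DUSP6, DUSP4 and EPHA2. The list median of 0.02 was close to the 0.01 over all genes. On plain totals 3 members rose and 1 fell, with a median of -0.05. DUSP6, the cytoplasmic ERK phosphatase, had 44.3 and 41.1 CPM at 30 h, against 27.0 and 22.8 CPM at 20 h (log2 0.77, SE 0.16, adjusted p = 0.000609). DUSP4, its nuclear relative, had 71.9 and 82.0 CPM at 30 h, against 50.3 and 52.5 CPM at 20 h (log2 0.58). MYC, the growth-promoting transcription factor, had 282 and 324 CPM at 30 h, against 209.7 and 225 CPM at 20 h (log2 0.47, SE 0.11, adjusted p = 0.00288). It was 1 of 3 that rose among 28 immediate early and AP-1 genes, where 1 fell (14.3% called). EGR1, an immediate early factor, had 70.1 and 76.4 CPM at 30 h, against 77.6 and 79.7 CPM at 20 h (log2 -0.09, adjusted p = 0.723). Differences of these changes from EGF alone were 0.64 for DUSP6 (adjusted p = 0.0932), 0.39 for MYC (0.141) and 0.78 for EGR1 (0.0576), none of them called. Without the block the calls of DUSP6 (adjusted p = 0.072), DUSP4 (0.067), EPHA2 (0.32) and MYC (0.35) were lost. DUSP6 had an adjusted p of 0.078 in cells thinned to 1 depth, and EPHA2 had 0.13 by DESeq2 and 0.087 on plain totals. MYC had an adjusted p of 0.062 by DESeq2 and 0.074 in cells called G1, DUSP4 and MYC had 0.079 and 0.12 without library 2, and EPHA2 had 0.23 without library 1 and 0.28 without library 2.

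Among 9 EGFR ligands and ERBB receptors 3 rose and 1 fell (44.4%, against 11.1% of all tested genes). The receptor EGFR itself on chromosome 7 (55019021 to 55211628) had 269 and 277 CPM at 30 h, against 187 and 186 CPM at 20 h (log2 0.54, SE 0.09, adjusted p = 2.54e-05), with close libraries and no overlap. With EGF alone it had 110.0 and 134 CPM at 30 h, against 127 and 152 CPM at 20 h, and the changes differed by 0.72 (SE 0.13, adjusted p = 0.000184). The ligand amphiregulin, AREG, had 948 and 1109.9 CPM at 30 h, against 528 and 711 CPM at 20 h (log2 0.74, SE 0.14, adjusted p = 0.000101). The ligand epigen, EPGN, rose by 0.42 (adjusted p = 0.0293). ERRFI1, whose product MIG6 binds and inhibits the EGFR kinase, had 31.8 and 34.0 CPM at 30 h, against 68.0 and 56.4 CPM at 20 h (log2 -0.97, SE 0.15, adjusted p = 3.27e-06), a change that differed from that with EGF alone by -0.85 (adjusted p = 0.0182). Receptor and inhibitor thus moved in opposite directions between the times. Without the block adjusted p was 0.072 for EGFR, 0.28 for AREG, 0.3 for EPGN and 0.052 for ERRFI1. For EPGN it was also 0.11 by DESeq2, 0.11 in cells thinned to 1 depth and 0.089 on plain totals. AREG had an adjusted p of 0.27 by DESeq2, and EPGN one of 0.24 without library 1 and 0.32 without library 2.

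Genes of hemidesmosomes, which anchor basal epithelial cells to laminin, were among those that rose. Of 17 basal keratinocyte and hemidesmosome genes 8 rose and 0 fell (47.1%, against 11.1% of all tested genes). The median was 0.26, and 4 rose without the library block. ITGB4, the integrin beta chain of hemidesmosomes, on chromosome 17 (75721328 to 75757818), had 598 and 507 CPM at 30 h, against 292 and 242 CPM at 20 h (log2 1.05, SE 0.09, adjusted p = 3e-12). LAMB3, a chain of laminin-332, on chromosome 1 (209614870 to 209652466), had 558 and 594 CPM at 30 h, against 272 and 311 CPM at 20 h (log2 0.99, SE 0.10, adjusted p = 2.84e-10). ITGA3, which pairs with ITGB1 as a laminin receptor, had 162 and 164 CPM at 30 h, against 109 and 99 CPM at 20 h (log2 0.65), and PLEC, which links hemidesmosomes to keratin filaments, had 492 and 435 CPM at 30 h, against 323 and 278 CPM at 20 h (log2 0.62). For all 4 genes both libraries at 30 h lay above both at 20 h. The other 4 that rose were LAMA3 (0.49), SFN (0.43) and the basal keratins KRT17 (0.48) and KRT14 (0.33), whose reads can be shared with KRT16 and with each other. KRT5, the most usual marker of basal cells, had 1824 and 2649 CPM at 30 h, against 2445 and 2877 CPM at 20 h (log2 -0.26, adjusted p = 0.065). EPCAM, a marker of simple epithelium, was low, with 1.74 and 5.04 CPM at 30 h, against 3.37 and 10.9 CPM at 20 h (log2 -1.02, adjusted p = 0.0548).

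With the MEK inhibitor 8 of the 17 also rose and 5 fell between the same times, with a median of 0.34. Compared with the MEK inhibitor, 5 had a higher and 2 a lower change with the PI3K inhibitor, with a median difference of 0.06. Compared with EGF alone, 10 of the 17 had a higher and 0 a lower change with the PI3K inhibitor, with a median difference of 0.50. ITGB4 had 149.9 and 139.5 CPM with EGF alone at 30 h, against 192 and 143 CPM at 20 h, and its changes differed by 1.25 (SE 0.13, adjusted p = 1.9e-09). LAMB3 had 97.1 and 113 CPM with EGF alone at 30 h, against 140.1 and 125 CPM at 20 h, and its changes differed by 1.34 (SE 0.15, adjusted p = 1.15e-08). In cells called G1 alone 738 of 8536 genes were called (8.65%), 366 higher (4.29%) and 372 lower (4.36%) at 30 h. There 9 of the 17 rose and 0 fell, with a median of 0.41, while 20 of 43 tested S phase genes fell and 0 rose. The phase calls used the S phase genes, so their counts within G1 are not independent of the choice of cells. CCNE2 turned to 0.64 in cells called G1 (adjusted p = 0.72).

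**Figure D4:**
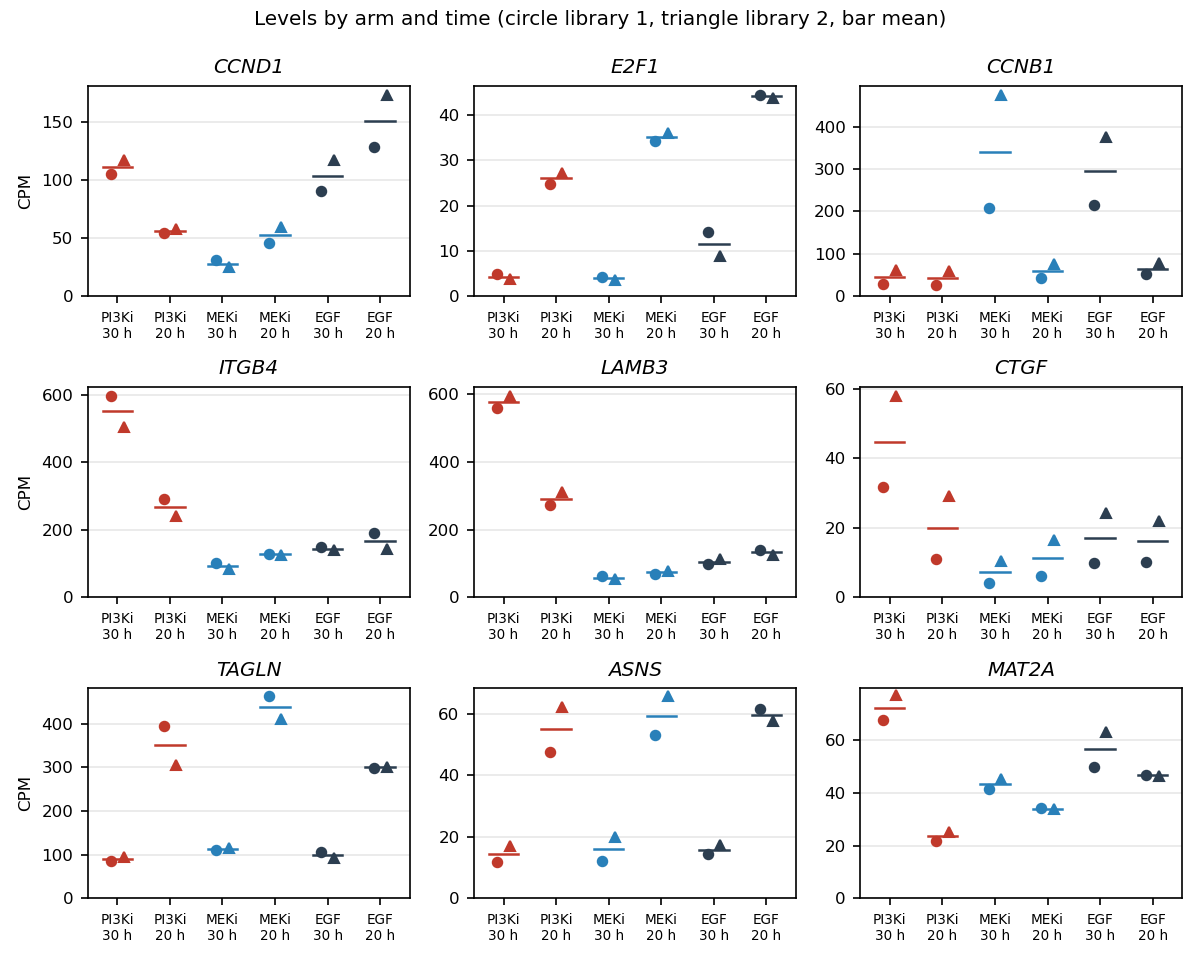
CPM of 9 genes with the PI3K inhibitor (red), the MEK inhibitor (blue) and EGF alone (dark), each at 30 h and 20 h. Circles are library 1, triangles library 2 and bars their mean. ITGB4, LAMB3 and CTGF are highest with the PI3K inhibitor at 30 h, and CCNB1 lies at 30.1 and 62.8 CPM there, against 216 and 375 CPM with EGF alone at 30 h.

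Several targets of YAP and TEAD, factors that respond to cell shape and tension, rose as well. Of 18 members 7 rose and 0 fell (38.9%, against 11.1% of all tested genes). The median was 0.46, and 2 rose without the library block. CTGF, a secreted matrix protein and the most used YAP target, on chromosome 6 (131948176 to 131951373), had 31.8 and 57.9 CPM at 30 h, against 11 and 29.2 CPM at 20 h (log2 1.21, SE 0.19, adjusted p = 5.89e-06). It was higher at 30 h within each library, but the 30 h value of library 1 was close to the 20 h value of library 2. AXL, a receptor tyrosine kinase, had 34.6 and 27.2 CPM at 30 h, against 14.6 and 12.4 CPM at 20 h (log2 1.2, SE 0.20, adjusted p = 1.3e-05). AJUBA, an adaptor that restrains the kinases upstream of YAP, had 34.3 and 41.0 CPM at 30 h, against 18.8 and 16.3 CPM at 20 h (log2 1.06), and F3, tissue factor, had 64.1 and 109.9 CPM at 30 h, against 34.3 and 55.4 CPM at 20 h (log2 0.95). Differences from EGF alone were called for CTGF (1.09, adjusted p = 0.0112) and F3 (1.02, adjusted p = 8.32e-05) of the 18. Without the block CTGF and F3 had adjusted p = 0.27 and 0.26, and in cells thinned to 1 depth AXL had a log2 change of 0.74 (adjusted p = 0.091). The CTGF promoter in RefSeq, where the gene is named CCN2 (chr6:131951323-131951622, minus strand), is shown because it holds the TEAD motif GGAATG, in capitals, at 3 places.
CCN2: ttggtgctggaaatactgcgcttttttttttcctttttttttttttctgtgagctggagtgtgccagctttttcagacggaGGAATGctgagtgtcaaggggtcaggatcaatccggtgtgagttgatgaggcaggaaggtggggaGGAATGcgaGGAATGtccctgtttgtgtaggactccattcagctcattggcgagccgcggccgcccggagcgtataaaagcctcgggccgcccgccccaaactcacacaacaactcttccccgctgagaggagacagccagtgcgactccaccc

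TEAD motifs were in 4 of 12 matched promoters of the list (33.3%), against 14% of all promoters. The TEAD motif and the ATF4 element below were added to the search after gene values had been seen.

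Actin and SRF targets went both ways. Of 22 actin and SRF targets 8 rose and 3 fell (50.0%, against 11.1% of all tested genes), with a median of 0.16. The largest fall was that of the actin-binding smooth muscle protein TAGLN (SM22) on chromosome 11 (117199321 to 117204782), with 84.8 and 94.6 CPM at 30 h, against 395 and 306 CPM at 20 h (log2 -1.95, SE 0.11, adjusted p = 2.42e-19). The regulatory myosin light chain MYL9 had 4.48 and 8.13 CPM at 30 h, against 23.3 and 13.9 CPM at 20 h (log2 -1.58, adjusted p = 2.15e-05; 0.34 without library 1). The third was profilin, PFN1 (-0.34). Of the 8 that rose the cytoplasmic actin ACTG1 had 2558 and 3929.7 CPM at 30 h, against 1749.8 and 1922 CPM at 20 h (log2 0.79), and the tropomyosin TPM4 had 243 and 243 CPM at 30 h, against 150.1 and 132 CPM at 20 h (log2 0.76). ACTG1 reads can be shared with ACTB. The others were ZYX (0.70), MYH9 (0.63), FLNA (0.62), TPM1 (0.53), CNN2 (0.46) and CALD1 (0.35). TAGLN also had lower values at 30 h in the other arms, with 105 and 93.3 CPM with EGF alone at 30 h, against 299 and 302 CPM at 20 h, and 111 and 116 CPM with the MEK inhibitor at 30 h, against 463 and 412 CPM at 20 h. The differences of its changes of -0.36 and -0.02 were not called (adjusted p = 0.176 and 0.956). Without the block ACTG1 and TPM4 had adjusted p = 0.16 and 0.068.

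Squamous genes also went both ways, with several secreted defence proteins among the falls. Of 30 squamous differentiation and keratinocyte stress genes 7 rose and 8 fell (50.0%, against 11.1% of all tested genes). PI3, which encodes the elastase inhibitor elafin and is no kinase, had 8.20 and 12 CPM at 30 h, against 55.7 and 54.9 CPM at 20 h (log2 -2.47, SE 0.32, adjusted p = 9.94e-08). SPRR1B, a cornified envelope protein, had 7.46 and 10.4 CPM at 30 h, against 24.7 and 52.5 CPM at 20 h (log2 -2.12). The acute phase proteins SAA1, with 121 and 199 CPM at 30 h, against 479 and 638 CPM at 20 h (log2 -1.80), and SAA2, with 15.7 and 28.5 CPM at 30 h, against 70.8 and 95 CPM at 20 h (log2 -1.88), fell too, and reads of these neighbours on chromosome 11 can be shared. MUC1, a mucin of the apical surface, had 19.9 and 21.6 CPM at 30 h, against 59.9 and 70.8 CPM at 20 h (log2 -1.66). In all 5 the times did not overlap. KRT16, a keratin of stressed epidermis on chromosome 17 (41609778 to 41615899), had 546 and 569 CPM at 30 h, against 178 and 297 CPM at 20 h (log2 1.27, SE 0.17, adjusted p = 1.19e-07). The desmosome linker periplakin, PPL, had 33.8 and 32.5 CPM at 30 h, against 15.5 and 13.9 CPM at 20 h (log2 1.15). With EGF alone KRT16 had 74.1 and 101 CPM at 30 h, against 107 and 166 CPM at 20 h, and its difference of 1.87 (SE 0.25, adjusted p = 4.11e-07) was the highest named against EGF alone. Differences for PI3 (-0.63), SPRR1B (0.11), SAA1 (-0.45) and MUC1 (-0.63) were not called, and all 4 also fell with EGF alone (-1.84, -2.23, -1.35 and -1.03). Without the block SPRR1B and KRT16 had adjusted p = 0.11 and 0.075 over time, and KRT16 0.17 in the interaction.

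Luminal and mesenchymal genes went both ways. Of 11 luminal and simple epithelial genes 2 rose and 2 fell (36.4%, against 11.1% of all tested genes). The rises were KRT7 with 1109 and 1479 CPM at 30 h, against 859 and 673 CPM at 20 h (log2 0.75), and KRT18 at a log2 change of 0.37. The falls were MUC1 (-1.66) and the tight junction gene CLDN4 (-3.27), which lay under the level set for naming and is given after its value was seen. Of 25 matrix and mesenchymal genes 4 rose and 2 fell (24.0%, against 11.1% of all tested genes). These falls were the collagen receptor chain ITGA2 (-0.41) and the urokinase gene PLAU (-1.41), the second of them also given after its value was seen. VIM, vimentin, had 1098 and 804 CPM at 30 h, against 731 and 490.1 CPM at 20 h (log2 0.65), and the repressor SNAI2 had 49.7 and 38.2 CPM at 30 h, against 34.3 and 22.3 CPM at 20 h (log2 0.59). The interaction with EGF alone was not called for VIM (-0.18, adjusted p = 0.587), while that of SNAI2 was (0.81, adjusted p = 0.0236). Adjusted p without the block was 0.056 for KRT7, 0.38 for KRT18, 0.34 for VIM, 0.26 for SNAI2 and 0.23 for ITGA2. By DESeq2 it was 0.18 for ITGA2, 0.079 for KRT18 and 0.058 for SNAI2. The call of ITGA2 was also lost in cells thinned to 1 depth (adjusted p = 0.26) and in cells called G1 (adjusted p = 0.3). Without library 2 it was 0.15 for KRT7, 0.31 for KRT18 and 0.14 for SNAI2, and the last pair also lost their calls without library 1 (0.087 and 0.078).

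Genes of amino acid synthesis were among the falls. Of 27 tested ATF4 targets and amino acid supply genes 0 rose and 6 fell (22.2%, against 11.1% of all tested genes), with a median of -0.26. Asparagine synthetase, ASNS, on chromosome 7 (97852118 to 97872542), had 11.9 and 16.9 CPM at 30 h, against 47.8 and 62.4 CPM at 20 h (log2 -1.90, SE 0.16, adjusted p = 3e-12). The serine synthesis enzymes PSAT1, with 11.9 and 16.1 CPM at 30 h, against 45.3 and 49.5 CPM at 20 h (log2 -1.70, SE 0.17, adjusted p = 2.84e-10), and PHGDH, with 14.4 and 21.8 CPM at 30 h, against 50.3 and 59.9 CPM at 20 h (log2 -1.56, SE 0.16, adjusted p = 2.08e-10), fell by nearly as much. All 3 had lower values at 30 h in both libraries with no overlap. The tryptophan tRNA synthetase gene WARS fell by 0.80 on the log2 scale, with adjusted p = 0.12 without the block and 0.51 without library 2, and the last pair were NUPR1 (-0.65) and the glutamine carrier SLC1A5 (-0.40). ASNS and PHGDH also fell with EGF alone (-1.96 and -1.79), and the differences of 0.05 and 0.23 (SE 0.23 and 0.23) were not called. The change of PSAT1 differed from that with EGF alone by -1.21 (SE 0.21, adjusted p = 0.000106), with 56.2 and 44.5 CPM with EGF alone at 30 h, against 67.9 and 72.9 CPM at 20 h. The ASNS promoter (chr7:97872359-97872658, minus strand) is shown for its ATF4 element, TGATGNAA, in capitals.
ASNS: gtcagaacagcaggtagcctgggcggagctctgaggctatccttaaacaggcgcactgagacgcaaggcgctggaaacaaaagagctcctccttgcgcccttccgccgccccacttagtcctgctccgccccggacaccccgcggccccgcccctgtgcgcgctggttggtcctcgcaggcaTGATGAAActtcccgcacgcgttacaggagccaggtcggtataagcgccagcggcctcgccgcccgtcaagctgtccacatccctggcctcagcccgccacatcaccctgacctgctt

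The ATF4 element was in 6 of 25 matched promoters of the list (24.0%), against 3.67% of all promoters. MAT2A, the enzyme that makes the methyl donor S-adenosylmethionine from methionine, on chromosome 2 (85539165 to 85545280), had the largest rise named. It had 67.4 and 76.9 CPM at 30 h, against 21.6 and 25.2 CPM at 20 h (log2 1.63, SE 0.14, adjusted p = 5.19e-12). With EGF alone it had 49.9 and 62.9 CPM at 30 h, against 46.7 and 46.4 CPM at 20 h, so that in both libraries the inhibited cells lay below EGF alone at 20 h and above it at 30 h. Its changes differed by 1.36 (SE 0.19, adjusted p = 1.35e-06) from EGF alone and by 1.27 (SE 0.21, adjusted p = 1.34e-05) from the MEK inhibitor.

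Sterol synthesis genes rose with EGF alone, and 9 of 22 had a lower change with the PI3K inhibitor than with EGF alone. Of 22 sterol synthesis and uptake genes 3 rose and 1 fell with the PI3K inhibitor (18.2%, against 11.1% of all tested genes, median 0.19). With EGF alone 17 rose and 0 fell (77.3%, against 7.79% of all tested genes, median 0.72). The interaction called 0 with a higher change, and its median was -0.56. FDPS, farnesyl diphosphate synthase, had 149.7 and 182 CPM with the inhibitor at 30 h, against 190.0 and 249 CPM at 20 h (log2 -0.39, SE 0.10, adjusted p = 0.00406), and 444 and 483 CPM with EGF alone at 30 h, against 231 and 281 CPM at 20 h. Its changes differed by -1.25 (SE 0.13, adjusted p = 1.9e-09). SQLE, squalene epoxidase, had 195 and 226 CPM with the inhibitor at 30 h, against 104 and 152 CPM at 20 h (log2 0.74, adjusted p = 5.33e-06), a change that differed from EGF alone by 0.02 (SE 0.15). Of 14 fatty acid synthesis genes the elongase ELOVL6 fell (-0.70, adjusted p = 0.0207) and 0 rose (7.14%, against 11.1% of all tested genes). ELOVL6 had an adjusted p of 0.38 in cells thinned to 1 depth and 0.07 without the 10% of cells with most UMIs. SPTLC3, a subunit of the enzyme that starts sphingolipid synthesis, was the second largest rise, with 35.3 and 24.9 CPM at 30 h, against 12.9 and 9.41 CPM at 20 h (log2 1.36, adjusted p = 4.17e-06). Without the block calls were lost for FDPS (adjusted p = 0.39), SQLE (0.15) and ELOVL6 (0.14), and without either library for FDPS (0.079 and 0.2) and ELOVL6 (0.21 and 0.31).

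Some glycolytic enzymes and chaperones fell. Of 20 glycolysis and glucose uptake genes 2 rose and 4 fell (30.0%, against 11.1% of all tested genes, median -0.15). PGK1, phosphoglycerate kinase, had 133 and 142 CPM at 30 h, against 241 and 217 CPM at 20 h (log2 -0.74, SE 0.10, adjusted p = 1.37e-07), PGAM1 fell by 0.53 and the lactate dehydrogenase LDHA by 0.41, while the lactate exporter SLC16A3 rose by 0.51. Pyruvate carboxylase, PC, which feeds pyruvate into the citric acid cycle, had 25.9 and 29.1 CPM at 30 h, against 11.5 and 10.4 CPM at 20 h (log2 1.34, adjusted p = 9.96e-06). Of 20 heat shock and chaperone genes 3 fell and 0 rose, a share of 15.0% that was close to the 11.1% of all tested genes. The falls were led by HSP90AA1, the inducible cytosolic HSP90, with 545 and 605 CPM at 30 h, against 1138 and 1001 CPM at 20 h (log2 -0.90, SE 0.10, adjusted p = 6.17e-09), and the mitochondrial co-chaperonin HSPE1 (-0.71). Their changes differed from those with EGF alone by -1.03 (adjusted p = 1.35e-06) and -0.90 (adjusted p = 3.05e-06), where their own log2 changes were 0.13 and 0.19 and were not called (adjusted p = 0.513 and 0.216). Calls were lost without the block for PGAM1 (adjusted p = 0.11), LDHA (0.34), SLC16A3 (0.28) and HSPE1 (0.065). They were lost without library 1 for PGAM1 (0.15) and LDHA (0.69) and without library 2 for SLC16A3 (0.29).

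Shares called in lists of growth and organelles lay on both sides of the 11.1% over all genes. Of 31 ribosome biogenesis genes 3 rose and 1 fell (12.9%, median 0.16), with the ribosome assembly factor PPAN at 39.8 and 57.6 CPM at 30 h, against 24.2 and 30.2 CPM at 20 h (log2 0.84; adjusted p = 0.069 without the block). Of 55 cytosolic ribosomal protein genes 0 were called in either direction by edgeR (median 0.13; 11 had an unadjusted p under 0.05, and DESeq2 called 6). Of 33 lysosome and autophagy genes 3 rose and 0 fell (9.09%), among them the cathepsin CTSB with 465 and 498 CPM at 30 h, against 305 and 295 CPM at 20 h (log2 0.68, SE 0.09, adjusted p = 4.56e-07), and the lysosomal cholesterol carrier NPC2 (0.78; adjusted p = 0.18 without the block). CTSB also differed from EGF alone, by 0.73 (adjusted p = 0.000264). Of 40 nuclear-encoded oxidative phosphorylation genes 1 rose and 2 fell (7.5%), of 13 mitochondrial-encoded transcripts 1 fell (7.69%), and of 28 proteasome genes 1 rose and 3 fell (14.3%). Of 24 p53 targets 1 rose (4.17%), the RNA-binding gene ZMAT3 (0.75; adjusted p = 0.46 without library 1). Of 14 hypoxia-type genes 3 rose and 1 fell (28.6%), led by ADM, which encodes the vessel-dilating peptide adrenomedullin, with 15.9 and 35.1 CPM at 30 h, against 5.62 and 16.3 CPM at 20 h (log2 1.26, adjusted p = 3.17e-05; 0.3 without the block). The libraries of each time differed as much as the times did. Of 19 interferon response and MHC class I genes 2 fell (10.5%), IFITM3 (-0.77) and its near copy IFITM2 (-0.33; adjusted p = 0.31 without library 1 and 0.26 without library 2). Of 5 tested markers of other cell types 2 fell and 0 rose (40.0%). They were CD14 with 0.995 and 2.11 CPM at 30 h, against 7.59 and 4.46 CPM at 20 h (log2 -1.88), and the fibroblast gene DCN with 18.1 and 6.83 CPM at 30 h, against 24.7 and 15.8 CPM at 20 h (log2 -0.71). Their part in the other results was not tested.

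The remaining large rises lay outside these groups. CCNA1, which encodes a cyclin A best known from male germ cells, had 21.1 and 28.5 CPM at 30 h, against 8.71 and 9.90 CPM at 20 h (log2 1.31, SE 0.24, adjusted p = 0.000108; 0.14 without the block). DLK2, a transmembrane relative of the Notch ligands, had 79.6 and 82.8 CPM at 30 h, against 33.5 and 34.7 CPM at 20 h (log2 1.27, SE 0.14, adjusted p = 4.69e-09). The methyltransferase gene N6AMT1 (1.28; adjusted p = 0.061 without library 2), the mRNA export gene THOC6 (1.23) and the RNA-binding gene RBM12 (1.22; adjusted p = 0.14 without library 1) were also among the 12. PAQR4, a membrane protein gene of the progestin and adipoQ receptor family, was the remaining large fall, with 14.9 and 13.0 CPM at 30 h, against 47.8 and 42.6 CPM at 20 h (log2 -1.72).

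Some genes were called both with the PI3K inhibitor and with EGF alone, 2 comparisons that share no cells. Of the 1236 genes called with the inhibitor 194 were also called with EGF alone in the same direction, which is 15.7% of these and 22.4% of the 868 called with EGF alone, and 46 in the opposite direction. For 361 of the 1236 the change differed from that with EGF alone by the interaction test. Beside CCND1 and KRT16, the highest differences were those of the kinesin light chain KLC3 (1.59), the fatty acid desaturase relative FADS3 (1.51), RBM12 (1.5) and the organic anion exporter ABCC3 (1.48). FADS3 had 44.0 and 48.3 CPM with the inhibitor at 30 h, against 22.5 and 28.7 CPM at 20 h, and 18.5 and 19.4 CPM with EGF alone at 30 h, against 29.9 and 27.8 CPM at 20 h. ABCC3 had 48.7 and 39.8 CPM with the inhibitor at 30 h, against 32.3 and 25.7 CPM at 20 h, and 19.8 and 14.2 CPM with EGF alone at 30 h, against 35.8 and 24.9 CPM at 20 h. Both were higher at 30 h with the inhibitor and lower with EGF alone, in both libraries. Without the block the differences of KLC3 (adjusted p = 0.31), RBM12 (0.11) and ABCC3 (0.12) were not called. In cells thinned to 1 depth the difference of KLC3 was 0.73 (adjusted p = 0.39). Without library 1 that of RBM12 was 0.89 and was not called.

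The largest differences from the MEK inhibitor were those of a noncoding RNA, an ecto-enzyme, a keratin and genes of the matrix and spindle. The noncoding RNA LINC00707 had 62.4 and 48.3 CPM with the PI3K inhibitor at 30 h, against 23.6 and 29.2 CPM at 20 h, and 12.1 and 10.5 CPM with the MEK inhibitor at 30 h, against 26.4 and 26.9 CPM at 20 h, a difference of 2.35 (SE 0.24, adjusted p = 4.81e-10). NT5E, the ecto-nucleotidase CD73, had 148 and 138 CPM with the PI3K inhibitor at 30 h, against 97.8 and 98.0 CPM at 20 h, and 15.1 and 16.6 CPM with the MEK inhibitor at 30 h, against 49.7 and 50.4 CPM at 20 h, a difference of 2.19 (SE 0.19, adjusted p = 2.41e-12). ABCC3 (2.20) and the CaMKII inhibitor gene CAMK2N1 (2.18) followed. Among the lowest, the basal keratin KRT15 had 11.9 and 20.0 CPM with the PI3K inhibitor at 30 h, against 15.7 and 21.8 CPM at 20 h, and 177 and 164 CPM with the MEK inhibitor at 30 h, against 14.8 and 21.7 CPM at 20 h, a difference of -3.40 (SE 0.35, adjusted p = 4.6e-10). The collagen cross-linking enzyme LOX (-3.77), the spindle gene PSRC1 (-3.41) and the helicase PIF1 (-4.44, adjusted p = 0.035) were the other 3, and PIF1 rests on 2 and 1 UMIs at 30 h, against 2 and 1 at 20 h, with the PI3K inhibitor. By list, 49 of 64 genes of G2 and mitosis had a lower and 0 a higher change with the PI3K inhibitor (median -1.23), 12 of 56 S phase genes a higher and 1 a lower change (median 0.50), and 5 of 18 YAP/TEAD targets a higher and 0 a lower change (median 0.53). Without the library block 48 genes had a higher and 36 a lower change, and LOX (0.051), PSRC1 (0.22) and PIF1 (0.33) were not called. LOX had an adjusted p of 0.27 without library 1, PSRC1 0.18 without library 2, and PIF1 0.39 without library 1, 0.14 without library 2 and 0.29 in cells thinned to 1 depth.

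**Figure D5:**
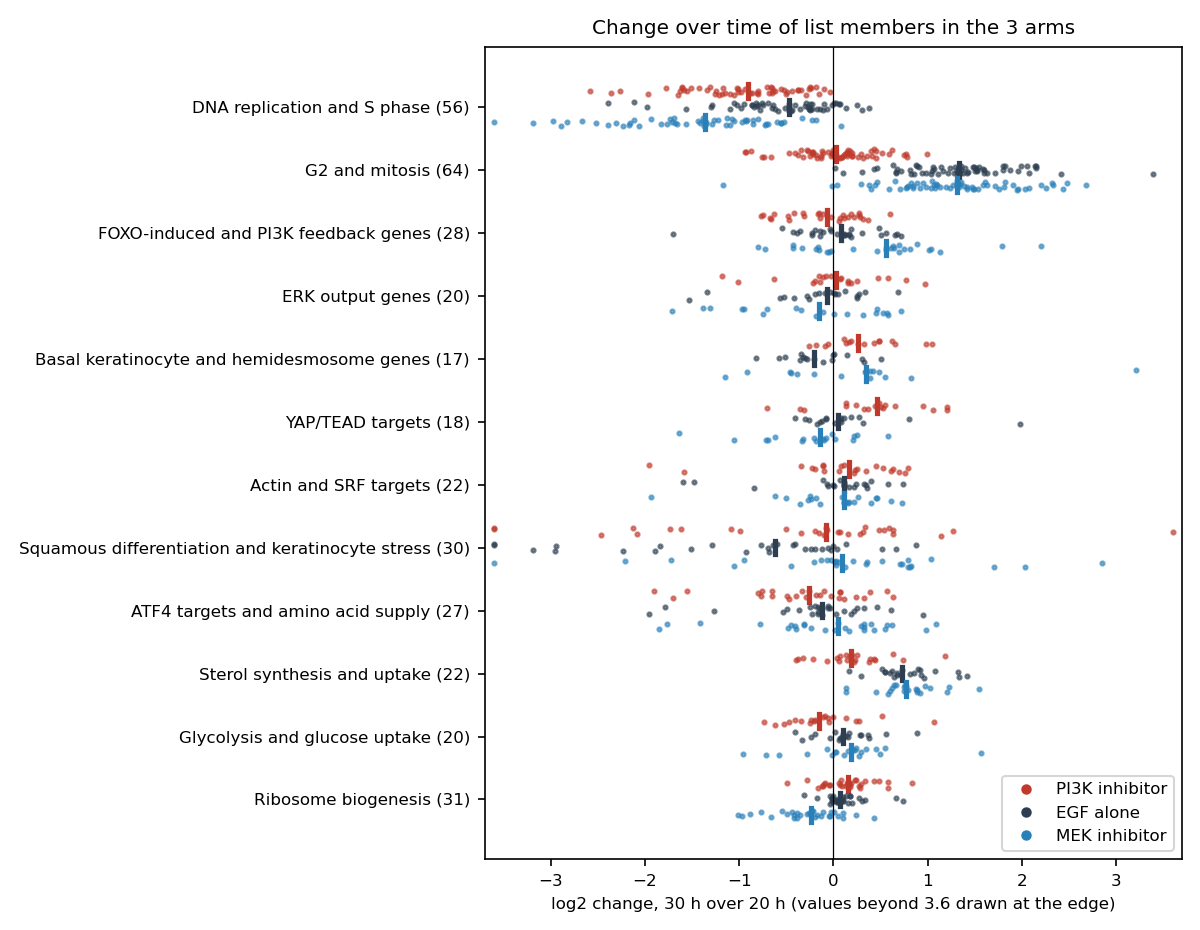
Log2 change, 30 h over 20 h, of each tested member of 12 lists (number in parentheses) with the PI3K inhibitor (red), EGF alone (dark) and the MEK inhibitor (blue), on the horizontal axis. Dots are genes, bars are list medians, and values beyond 3.6 sit at the edge. The G2 and mitosis median is 0.03 with the PI3K inhibitor and 1.33 with EGF alone, and the S phase median is -0.91 with the PI3K inhibitor and -0.47 with EGF alone.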

How the data were processed

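Single-cell RNA-seq libraries of tagged, methanol-fixed MCF10A cells were made with a multiplexing kit that pools all conditions in 1 library. The deposited matrices hold UMI counts per gene and cell, made by the authors with Cell Ranger 3.0.2 on GRCh38, with Seurat listed as well, per the submitters' processing notes. The authors' tables of tags and of conditions gave each cell its group. The files held cells with at least 1501 detected genes and at most 9.997% mitochondrial UMIs. Barcodes carrying more than 1 tag, 4848 of 8641 and 2478 of 6161, belong to no condition, and no doublet caller was run. No source used here states the strand setting of the counting.

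Counts of the 16387 genes listed in both libraries were summed over cells of each condition and library, giving 16 sums of 8 conditions. Genes were filtered by filterByExpr and fitted in edgeR 4.0.16 with TMM scaling, the library as a block, and the quasi-likelihood F test, with Benjamini-Hochberg adjustment over 11147 genes at 0.05. The library was kept as a block because each library is 1 replicate of every condition, and deviations of conditions within a library correlated with a median r of 0.588 (0.281 to 0.677, 28 pairs of conditions). The SE is the size of the log2 change over the square root of F. Cells were thinned to 6500 UMIs for phase calls with scanpy 1.11.5, from 57 S and 64 G2/M genes. Exact binomial intervals are at 95%.

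Named genes are the 12 largest called changes each way at 20 CPM or more with the same sign in both libraries, the 6 and 4 largest differences each way from EGF alone and the MEK inhibitor, up to 4 called members of each list at 10 CPM or more, and a set chosen whatever their values. Other members were picked after their values were seen. The members and lists were chosen with earlier results of these data known. Alternatives left out the block, the scaling, the filter, each library or some cells, or used DESeq2 1.42.0. Gene positions are those of GENCODE v29 on GRCh38.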

Additional observations from a re-analysis of the deposited data

Results flagged for a closer look

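A change between 20 h and 30 h that differed between arms by the interaction test drew attention to 20 results named by size. Against EGF alone, the change with the PI3K inhibitor was higher for KRT16 by 1.87, KLC3 by 1.59, FADS3 by 1.51, CCND1 by 1.5, RBM12 by 1.5 and ABCC3 by 1.48 on the log2 scale. It was lower for HMGN5 (-2.24), NEK2 (-2.10), CCNB1 (-1.99), NMU (-1.98), DLGAP5 (-1.95) and CDCA3 (-1.94). NEK2, CCNB1, DLGAP5 and CDCA3 belong to the G2 and mitosis list, and HMGN5 and NMU belong to no list used. The difference of KLC3 was 0.73 in cells thinned to 1 depth and was not called there (adjusted p = 0.39).

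Against the MEK inhibitor, the change was higher for LINC00707 by 2.35, ABCC3 by 2.20, NT5E by 2.19 and CAMK2N1 by 2.18. It was lower for PIF1 (-4.44), LOX (-3.77), PSRC1 (-3.41) and KRT15 (-3.40). PIF1 had 0.497 and 0.163 CPM with the PI3K inhibitor at 30 h, against 0.562 and 0.495 CPM at 20 h, and 17.8 and 26.9 CPM with the MEK inhibitor at 30 h, against 0.388 and 3.32 CPM at 20 h. LOX had 0.995 and 1.95 CPM with the PI3K inhibitor at 30 h, against 2.81 and 1.49 CPM at 20 h, and 22.3 and 40.8 CPM with the MEK inhibitor at 30 h, against 2.72 and 4.83 CPM at 20 h. ABCC3 stood out in both comparisons. No group of samples was large enough for a test of single outlying samples.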

How the results depend on the processing

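Without the library block 62 genes were higher and 102 lower at 30 h with the PI3K inhibitor, 5 had a higher and 1 a lower change than with EGF alone, and 48 a higher and 36 a lower change than with the MEK inhibitor. This fit treats libraries as unpaired, and 81 of 146 results on named genes lost their calls in it. The 146 include genes chosen whatever their values, some of which had no call to lose. Of the 1236 genes called over time 164 were kept without the block and 554 in cells thinned to 1 depth. Cells thinned to 1 depth gave 299 higher and 311 lower, 113 and 182 against EGF alone, and 216 and 357 against the MEK inhibitor, from fewer UMIs. DESeq2 gave 400 lower, 231 lower against EGF alone, and 272 higher and 381 lower against the MEK inhibitor. Plain totals gave 591 lower against EGF alone. Cells called G1 gave 366 higher and 372 lower over 8536 genes.

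With 1 library left out and the spread taken from the other conditions, so that the remaining library is assumed to vary like them, counts ranged from 180 to 196 higher and from 175 to 234 lower. They ranged from 53 to 75 higher and 70 to 124 lower against EGF alone, and from 117 to 174 higher and 217 to 244 lower against the MEK inhibitor. Of the 1236 calls, 799 were kept with DESeq2, 1052 with plain totals, 668 in cells called G1, 326 without library 1 and 406 without library 2. The G1 share was 25.2 points higher at 30 h with limits on list UMIs, 9.39 with all UMIs, and 8.43 to 11.7 in single libraries.

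The sign changed in 1 result on a named gene, CCNE2 at 0.64 in cells called G1, a choice of cells that used CCNE2. The fit without the 0 h and 15 h sums, and those without 1 library that take the spread from the other conditions, were chosen after seeing the data. Causes of the other changes were not tested. Among the sums of the PI3K inhibitor depth was lowest at 20 h in library 2, with 1938814 UMIs.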
